A study of Mus musculus with 4 samples.

Results

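*Bdh1*, *Oxct1* and *Acat1* encode the enzymes with which the heart burns ketone bodies, and these 3 genes were followed here among the 24454 genes counted in mouse hearts at postnatal day 7 (P7). They were taken by name as ketone genes and not by their expression, although earlier results of these data were already known. Hearts from control mice (Ctrl, libraries WH7 and WH8) were compared with hearts from mice that overexpress the microRNA *miR-128* (miR-128OE, libraries WH9 and WH10), to learn which genes change with *miR-128*. By the study's methods, miR-128OE mice carry α-MHC-tTA, a transcriptional activator driven by a cardiomyocyte promoter, together with miR-128TetRE, a *miR-128* gene that tTA switches on. Ctrl mice carry miR-128TetRE without the activator, so effects of tTA and of *miR-128* cannot be told apart. Both groups are on a C57BL/6 background, doxycycline represses the transgene, and the doxycycline schedule and the number of hearts per library are not given for these libraries in the sources used here. Nothing says whether libraries of a group came from separate animals, so p-values measure the spread between these libraries.

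Ketone bodies, chiefly β-hydroxybutyrate and acetoacetate, are made in mitochondria from acetyl-CoA derived from fat, mostly in the liver, and are carried in the blood to other organs. In the using organ, *Bdh1* encodes the β-hydroxybutyrate dehydrogenase that interconverts β-hydroxybutyrate and acetoacetate. *Oxct1* encodes SCOT, which hands coenzyme A from succinyl-CoA to acetoacetate, and *Acat1* encodes the mitochondrial thiolase that splits the product into acetyl-CoA for the TCA cycle. Milk is rich in fat and suckling animals carry high blood ketones, which heart muscle can oxidize.

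The libraries held between 8096870 and 14359838 counts, and 3 counts, taken as the detection floor, corresponded to 0.209 to 0.371 CPM (counts scaled by the library total). Floors cover counting error only. Replicates differed by more than sampling noise, with a chi-square per degree of freedom of 9.91 between WH7 and WH8 and 4.82 between WH9 and WH10. The groups also differed in sex-linked transcripts. *Xist*, expressed from the inactive X chromosome, was counted 14543 and 11339 times in the Ctrl libraries against 94 and 132 times in miR-128OE, and the Y-linked *Ddx3y* 13 and 7 times against 1442 and 1768 times. Sex and genotype therefore cannot be told apart in any comparison below. Of the *miR-128* genes themselves, *Mir128-1* was at 0 counts throughout. *Mir128-2* had 2 counts in WH9, 10 in WH10 and 0 in both Ctrl libraries. These gene counts are not a measure of mature *miR-128*, whose induction the study reported by qPCR in newborn miR-128OE hearts. In whole hearts, fewer cells of a type and less RNA per cell cannot be told apart.

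Mature *miR-128* is printed first, with the seed matches of *Bdh1* and of the carrier gene *Slc16a1*, because the mice differ by this microRNA. In the microRNA (RefSeq, GRCm38.p6), capitals mark the seed, bases 2 to 8. In the transcripts (GENCODE M21, GRCm38), capitals mark the match to it and the lower-case letters the bases around it in the 3′UTR.
miR-128-3p: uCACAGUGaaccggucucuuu
Bdh1: agccagtcacaccaaaggtCACTGTGtg
Slc16a1: gatgctgttagccttaagaCACTGTGgg

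The *Bdh1* match lies at 31457692 to 31457698 of chromosome 16, at base 1604 of a 3′UTR of 2809 nucleotides on the + strand. That of *Slc16a1*, a ketone and lactate carrier, lies at 104657483 to 104657489 of chromosome 3, at base 1761 of 2740, also on the + strand. Both match the 7 seed bases with no A after them. *Oxct1* and *Acat1* had 0 matches in their longest 3′UTR. Of 13498 compared genes with an annotated 3′UTR, 33.2% held at least 1 match. A match describes letters and does not show binding. Of the 32 genes of a wider ketone list, 11 (34.4%) held a match. Of the 6 of these that were tested, 5 were higher in miR-128OE hearts (*Slc16a1*, *Slc16a3*, *Suclg1*, *Suclg2* and *Ppargc1a*) at an adjusted p-value under 0.05, and *Pparg* had no call. Among all tested genes with a match, 15.2% were higher and 16.5% lower. In the whole ketone list, with or without a match, 11 of 22 tested genes were higher.

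*Oxct1* and *Acat1* were well expressed at P7 and rose in miR-128OE hearts, whereas *Bdh1* had counts close to the detection floor. *Oxct1* (Entrez Gene 67041, chromosome 15, 4026383 to 4155344 of GRCm38) had 2731 normalized counts in WH7 and 2596 in WH8, the Ctrl libraries, against 3827 in WH9 and 3639 in WH10. Normalized counts are counts scaled to a common library size. Both miR-128OE libraries lay above both Ctrl libraries, with means of 2663 ± 95.0 (SD, n = 2) and 3733 ± 133 (SD, n = 2). The log2 fold change was 0.49 ± 0.08 (SE), or 1.40-fold, and passed the quasi-likelihood test of edgeR at an adjusted p = 0.0019 (Benjamini-Hochberg over the 14266 genes tested). The 5′ end of *Oxct1* overlaps the antisense transcript *BC037032*, which had 15 to 24 counts beside 1837 to 4326 for *Oxct1*, and the antisense *Gm15632* lies within the gene. The use of strand in counting is not known, so reads from overlapping genes cannot be told apart.

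*Acat1* (Entrez Gene 110446, chromosome 9, 53580522 to 53610382) had 2598 and 2947 normalized counts in WH7 and WH8, and 5229 and 4710 in WH9 and WH10. The groups did not overlap, and the mean rose from 2772 ± 247 to 4969 ± 367 (SD, n = 2 each). The log2 fold change was 0.84 ± 0.09 (SE, edgeR adjusted p = 0.000316), or 1.79-fold. Over all genes tested, 31.5% were called at an adjusted p-value under 0.05, 16.5% higher and 15% lower, and both miR-128OE libraries lay above both Ctrl libraries in 33.7% and below them in 34.4%. Of the called genes, 52.3% were higher, and 35.3% when libraries were scaled by their total alone. Of the 3 genes, 2 passed the filter on low counts, and both of these were higher, also with total counts. The call of neither gene was lost when any library was left out, although that of *Oxct1* came close to the threshold without WH9 (edgeR adjusted p = 0.042).

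*Bdh1* (Entrez Gene 71911, chromosome 16, 31422280 to 31458901) had 7 and 2 counts in WH7 and WH8, and 12 and 10 in WH9 and WH10. Library WH8 was below the floor of 3 counts, and the gene did not pass the filter, so the comparison of all genes gave it no test. In normalized counts the values were 6.40 and 2.83 against 11.9 and 8.41. The pooled counts, 9 in Ctrl and 22 in miR-128OE libraries, gave a ratio of 1.87 when scaled by library totals. Its exact 95% counting interval was 0.827 to 4.61, which includes no change and leaves out the spread between libraries. With no filter on low counts, the log2 fold change was 1.03 (edgeR adjusted p = 0.386), so a difference was not detectable with these counts. For each count of *Bdh1*, *Oxct1* had between 322 and 919 counts in the same library. An antisense gene, *Gm15743*, lies within *Bdh1*. Whether the few counts of *Bdh1* reflect little RNA or the gene models and the treatment of multi-mapping reads in the counting is not settled by the table, and its levels, rank and ratios share this limit.

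**Figure D1:**
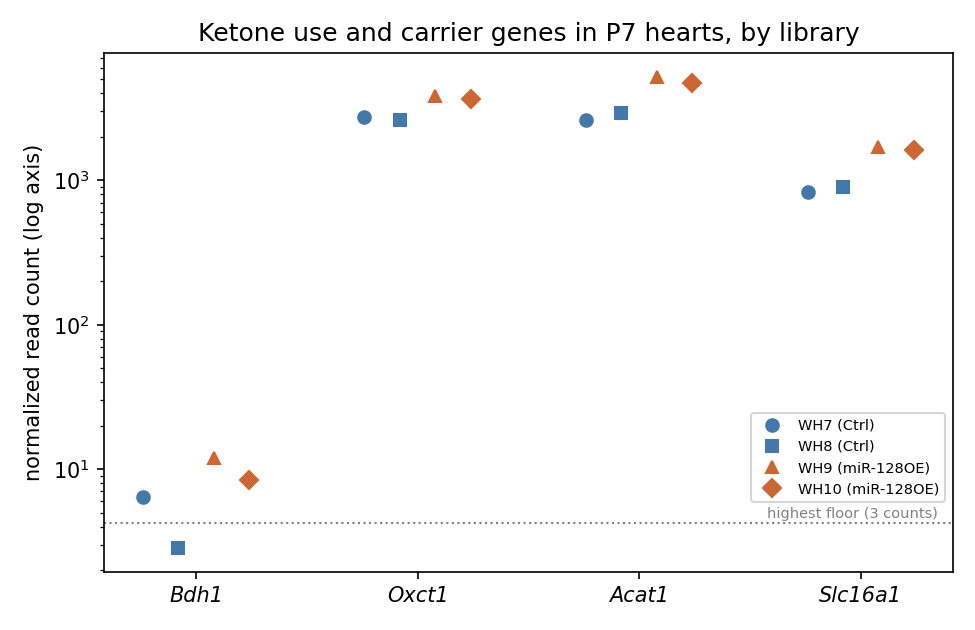
Normalized read counts (log axis) of the 3 ketone use genes and of the carrier gene *Slc16a1* in each P7 heart library, Ctrl in blue and miR-128OE in orange, with the highest library floor of 3 counts dotted. *Oxct1* and *Acat1* sit between 2596 and 5229 and *Slc16a1* between 828 and 1690, each higher in miR-128OE libraries, and *Bdh1* stays at 2.83 to 11.9.

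Levels of different genes were compared as CPM per kilobase of merged exons. *Acat1* stood at 62.7 ± 5.57 in Ctrl and 112 ± 8.29 in miR-128OE hearts, and *Oxct1* at 61.1 ± 2.18 and 85.7 ± 3.05 (SD, n = 2 each) on the same scale. In Ctrl hearts the library values of both genes overlapped, and in miR-128OE hearts both values of *Acat1* lay above those of *Oxct1*. *Bdh1* had 0.101 ± 0.055 in Ctrl and 0.222 ± 0.054 in miR-128OE hearts (SD, n = 2 each). Among the 32 genes of the list of ketone metabolism, transport and control, *Acat1* and *Oxct1* ranked 3 and 4 by this level in both groups, behind *Bsg*, a chaperone of monocarboxylate carriers (452 in Ctrl), and *Cs*, citrate synthase (69.2 in Ctrl). The Ctrl values of the neighbors *Cs* and *Acat1* also overlapped, and *Sucla2* came next at 47.6 ± 1.78 (SD, n = 2). This order depended on the length used. Per kilobase of the longest transcript, *Acat1* and *Oxct1* ranked 4 and 6 in both groups, with *Sucla2* (85.2 in Ctrl and 135.5 in miR-128OE hearts) above *Acat1* (69.2 and 124) and *Suclg1* (65.8 and 100.2) above *Oxct1* (64.1 and 89.9). *Bdh1* ranked 24 in Ctrl and 23 in miR-128OE hearts per kilobase of merged exons, and 25 and 23 per kilobase of the longest transcript.

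**Figure D2:**
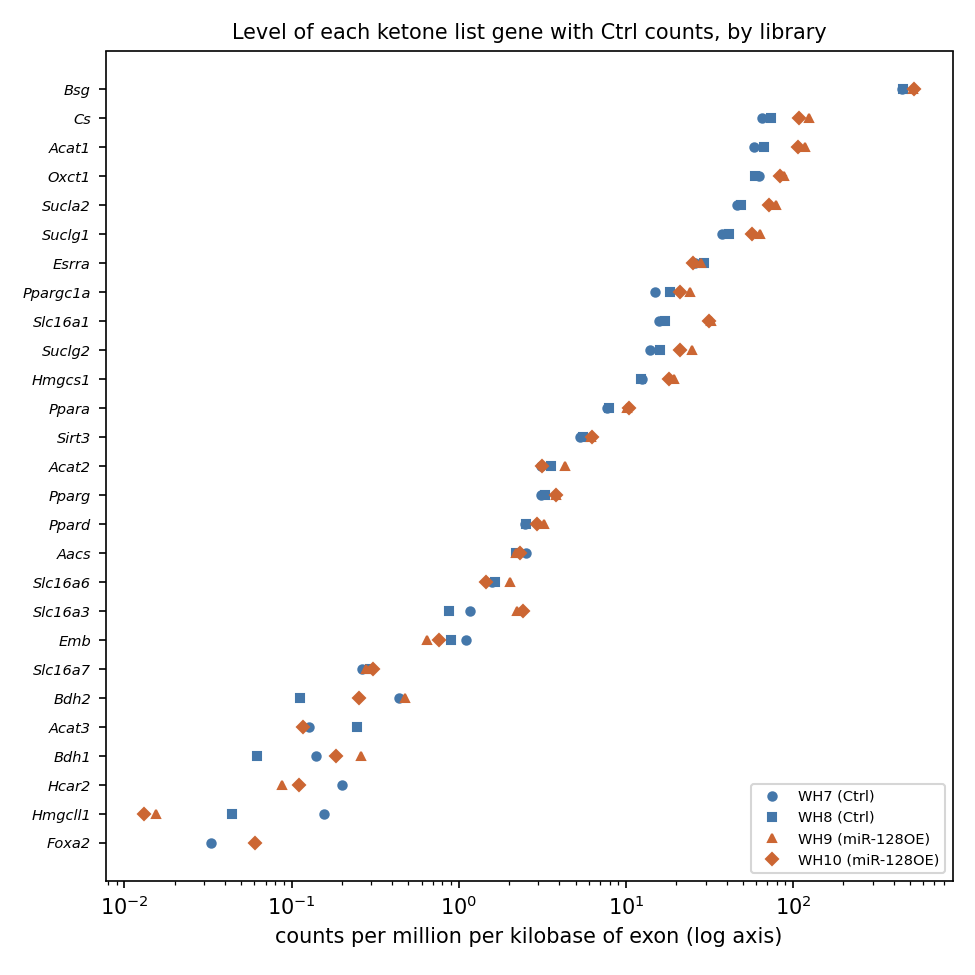
CPM per kilobase of exon (log axis) for each ketone list gene with counts in Ctrl, ordered by the Ctrl mean, with 1 point per library (blue Ctrl, orange miR-128OE; a library at 0 has no point). *Acat1* and *Oxct1* stand near the top at 61.1 to 112 on average, and *Bdh1* near the bottom at 0.101 to 0.222.

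The ratio of genes within a library does not depend on how libraries are scaled. *Acat1* had 0.951 and 1.14 counts per count of *Oxct1* in WH7 and WH8, and 1.37 and 1.29 in WH9 and WH10, so the ratio was higher in both miR-128OE libraries. The difference of the mean log2 ratio was 0.36 (p = 0.3333, two-sided exact permutation test, the smallest p that 2 against 2 libraries allow). For *Bdh1* over *Oxct1*, the libraries overlapped (p = 0.667, exact permutation test), as they did for *Bdh1* over *Acat1* (p = 1.0, exact permutation test). The 3 pairs form a family, and no adjusted p-value can pass 0.05 with 4 libraries.

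Ketone bodies cross membranes on proton-linked monocarboxylate carriers, which also move lactate and pyruvate. *Slc16a1* (MCT1) had 828 and 896 normalized counts in WH7 and WH8, and 1690 and 1633 in WH9 and WH10. The groups were well apart, and the log2 fold change was 0.95 ± 0.08 (SE, edgeR adjusted p = 9.9e-05). Per count of *Oxct1*, there were 0.303 (WH7), 0.345 (WH8), 0.442 (WH9) and 0.449 (WH10) counts of *Slc16a1*, a ratio chosen after its values were seen. The difference of the mean log2 ratio was 0.46 (p = 0.3333, exact permutation test, the smallest possible). *Slc16a3* (MCT4), a carrier known for lactate export, was scarcer, with 73.2 and 55.1 against 140 and 151 normalized counts and a log2 difference of 1.16 ± 0.20 (SE, edgeR adjusted p = 0.0027). *Slc16a7* (MCT2) and *Slc16a6* did not pass the threshold, with log2 fold changes of 0.08 and 0.10. *Bsg*, which encodes basigin, the partner that brings MCT1 to the cell surface, had a log2 fold change of 0.22 (edgeR adjusted p = 0.0744), a call gained with limma-voom (adjusted p = 0.0383), with no filter (0.0444) and without WH7 or WH8 (0.0481 and 0.038). *Emb*, the partner of MCT2, had −0.52 (edgeR adjusted p = 0.124). Thus 2 of 6 tested transport genes rose, beside 16.5% over all genes tested. *Slc5a8*, a sodium-coupled carrier, had at most 1 count.

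**Figure D3:**
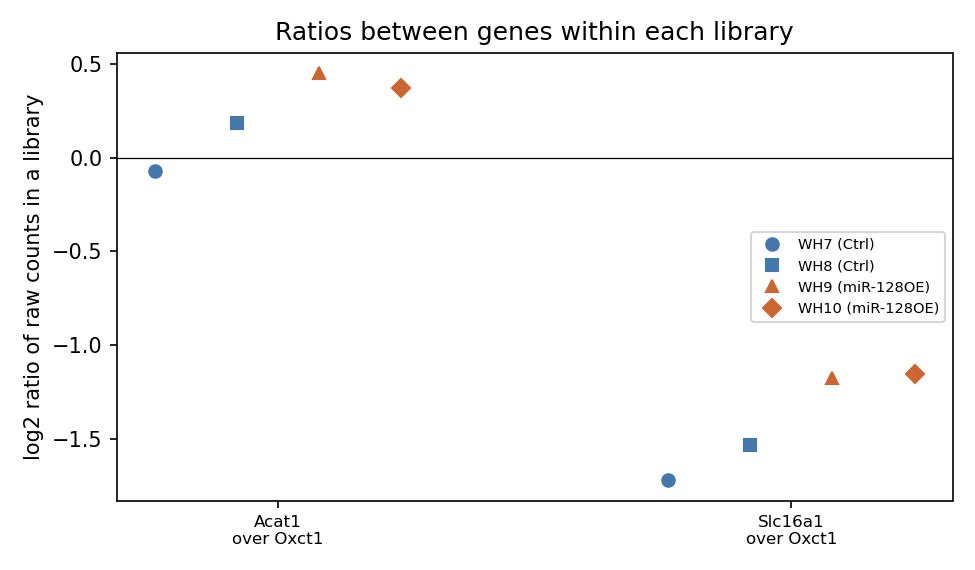
Log2 ratios of raw counts of 2 genes within each library, for *Acat1* and *Slc16a1* over *Oxct1* (blue Ctrl, orange miR-128OE). Both ratios are higher in both miR-128OE libraries, by 0.36 and 0.46 on average.

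SCOT draws on succinyl-CoA, and the acetyl-CoA that the thiolase then yields enters the TCA cycle through citrate synthase. The 3 succinyl-CoA ligase genes and *Cs* all rose, beside 16.5% called higher over all genes tested. These 4 genes are also in the TCA cycle list below, in which all 17 genes rose. *Suclg1* encodes the shared α-subunit, with a log2 fold change of 0.61. *Sucla2* (0.67) encodes the ATP-forming and *Suclg2* (0.61) the GTP-forming β-subunit, and *Cs* had 0.75, with adjusted p-values from 0.000526 to 0.00268 over these 4 genes in the edgeR test. *Sirt3*, a mitochondrial deacetylase, did not pass (0.21, edgeR adjusted p = 0.148).

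Outside mitochondria, *Hmgcs1*, the cytosolic HMG-CoA synthase of sterol synthesis, rose from 671 ± 1.57 to 1014 ± 46.5 normalized counts (SD, n = 2 each), with a log2 fold change of 0.59 ± 0.08 (SE, edgeR adjusted p = 0.000948). *Acat2*, the cytosolic thiolase (log2 fold change 0.16), *Aacs*, which activates acetoacetate for lipid synthesis (−0.07), and *Bdh2* (0.25) did not pass the threshold, and their libraries overlapped. *Bdh2* had 4 to 24 counts. *Oxct2a* and *Oxct2b*, near-identical intronless copies of the SCOT gene known from testis, are listed at 0 in each library. The adult globin genes *Hba-a1*, *Hba-a2*, *Hbb-bs* and *Hbb-bt*, likewise near-identical pairs, are also listed at 0, whereas the erythroid enzyme gene *Alas2* had 215 to 899 counts. How such copies were counted is not known, so values of these genes are uncertain. *Acat3* had 0 to 5 counts and *Hmgcll1* 1 to 11.

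Of the transcriptional regulators, *Ppara*, the fatty acid sensor that drives ketone synthesis genes in liver, rose from 353 ± 8.12 to 466 ± 10.7 normalized counts (SD, n = 2 each). Its log2 fold change was 0.40 ± 0.10 (SE, edgeR adjusted p = 0.0156), and the call was lost with DESeq2 (adjusted p = 0.0623), with total counts (edgeR adjusted p = 0.0501), and without WH9 or without WH10 (edgeR adjusted p = 0.098 and 0.112). *Ppargc1a*, a coactivator of mitochondrial genes, had a log2 fold change of 0.44 (edgeR adjusted p = 0.0149), lost without WH9 (adjusted p = 0.142). *Ppard* (0.30), *Pparg* (0.26) and *Esrra* (−0.06) did not pass the threshold, although *Ppard* gained a call with the offset for GC content and length (0.39, adjusted p = 0.0394). *Foxa2*, the liver hormone gene *Fgf21* and the ketone and short-chain acid receptor genes *Hcar2* and *Ffar3* had at most 5 counts in any library.

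Over the 32 listed genes, 22 were tested and 11 rose, beside 16.5% called higher and 15% lower over all genes tested. The median log2 fold change was 0.35, against −0.01 over all genes tested. With 1 library left out the number that rose was 9 to 12, the lowest without WH9. The 10 untested genes, *Bdh1* among them, had at most 12 counts in any library.

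**Figure D4:**
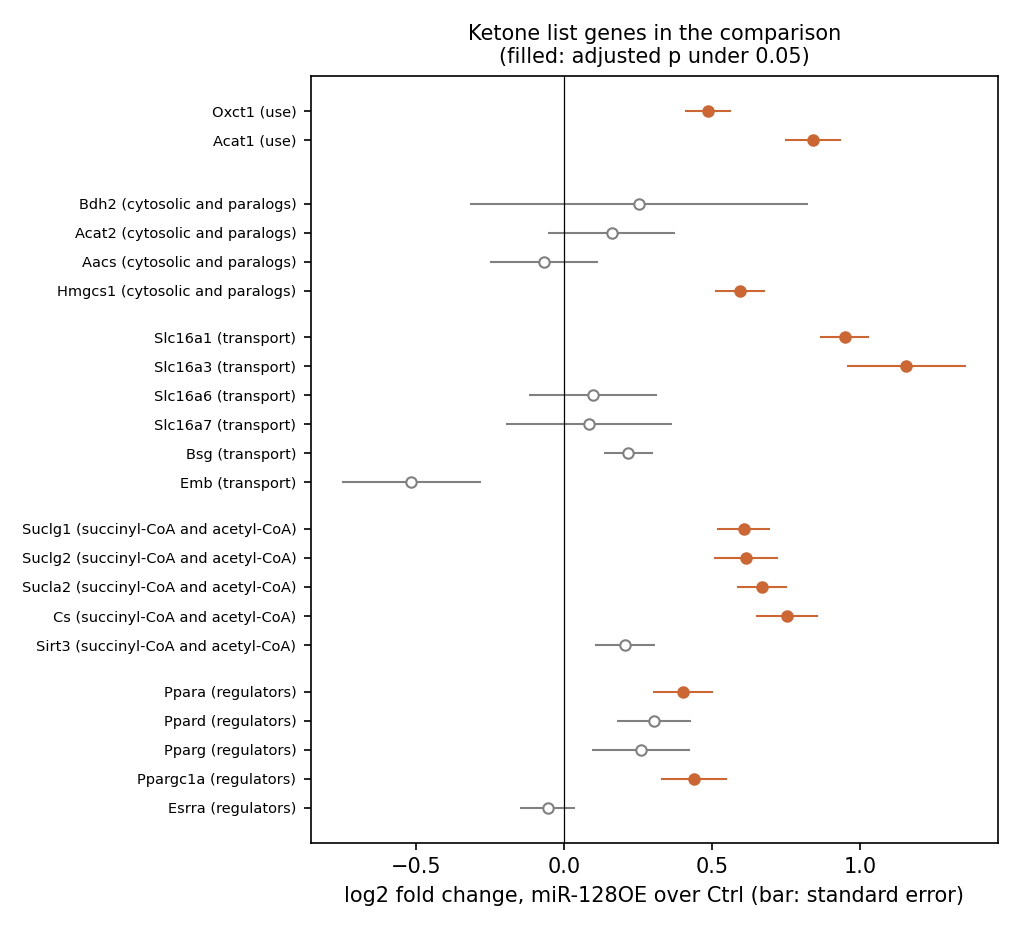
Log2 fold changes of the 22 tested ketone list genes, miR-128OE over Ctrl, with standard errors as bars, grouped by role, and filled points for an adjusted p-value under 0.05. *Oxct1*, *Acat1*, *Slc16a1*, *Slc16a3*, *Suclg1*, *Suclg2*, *Sucla2* and *Cs* lie between 0.49 and 1.16. *Sirt3*, in the same role group as *Cs*, lies at 0.21 with no call.

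The ketone use genes were set beside other fuel pathways of mitochondria. The shares over all genes tested were 16.5% called higher and 15% lower. The TCA cycle list shares 4 genes with the ketone list (*Cs*, *Suclg1*, *Suclg2* and *Sucla2*), which are 4 of the 11 ketone list genes that rose. All 17 TCA cycle genes listed rose, with a median log2 fold change of 0.62, and *Mdh2* (1.22) and *Fh1* (0.93) had the smallest p-values. The log2 fold change of *Oxct1* lay below 16 of these and above 1, and that of *Acat1* above 13 and below 4. Of 19 fatty acid oxidation genes, 15 rose and 2 fell, with a median of 0.64, and 12 of them had a larger value than *Oxct1* and 2 a larger one than *Acat1*. *Acads* (0.97) and *Echs1* (0.83), the dehydrogenase and the hydratase for short acyl chains, had the smallest p-values. The 2 that fell were *Cpt1a* (−0.28) and *Cpt1b* (−0.71), forms of the transferase that admits long fatty acids to mitochondria, and both calls were lost with DESeq2 (adjusted p = 0.0922 and 0.093), that of *Cpt1a* with the offset for GC content and length (adjusted p = 0.115), that of *Cpt1b* with limma-voom (adjusted p = 0.0579), and both without WH8, WH9 or WH10 (edgeR adjusted p = 0.0655 to 0.255). Without WH9 only 9 of the fatty acid oxidation genes were called higher. These are positions of single genes, and differences between the lists were not tested.

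**Figure D5:**
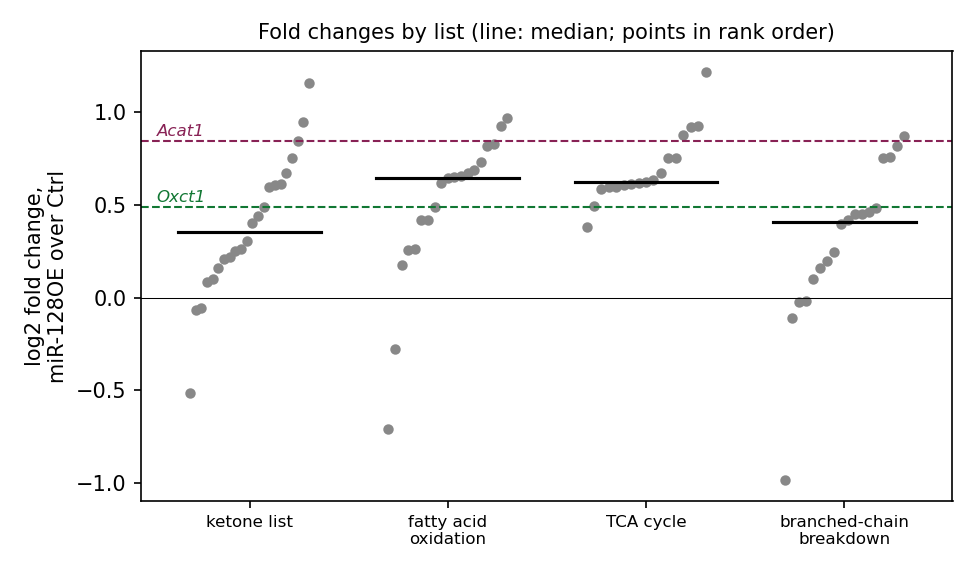
Log2 fold changes, miR-128OE over Ctrl, of the tested genes of the ketone list and of 3 comparison lists, in rank order with the median as a line, and *Oxct1* (0.49) and *Acat1* (0.84) as dashed lines. The medians are 0.35, 0.64, 0.62 and 0.41 from left to right, each list except the TCA cycle holds genes below 0, and 4 genes are in both the ketone and the TCA list.

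Acetoacetate and the *Acat1* thiolase are also met in the breakdown of branched-chain amino acids. Of 18 such genes, 10 rose and 1 fell, with a median log2 fold change of 0.41, and without WH9 the number called higher was 3. Among all genes tested, 16.5% were called higher and 15% lower. *Hibadh* (0.82), of valine breakdown, and *Bckdha* (0.75), a subunit of the branched-chain ketoacid dehydrogenase, had the smallest p-values of the list. *Bckdhb* (−0.02) and *Dbt* (−0.02), of the same complex, did not pass the threshold, and neither did the transaminase gene *Bcat2* (0.16). On the isoleucine branch, which ends at *Acat1*, all 4 of *Acadsb* (0.40), *Echs1* (0.83), *Hsd17b10* (0.42) and *Acat1* (0.84) rose, with *Acadsb* and *Hsd17b10* lost without WH9 (edgeR adjusted p = 0.301 and 0.0628) and *Acadsb* also with upper-quartile factors (0.0518), total counts (0.0805) and DESeq2 (0.0581). On the leucine branch, the carboxylase subunit gene *Mccc1* fell, from 310 ± 28.9 to 156 ± 15.4 normalized counts (SD, n = 2 each). Its log2 fold change was −0.98 ± 0.14 (SE, edgeR adjusted p = 0.00104). Its partner *Mccc2* (0.20) and *Ivd* (0.24) did not pass the threshold, although *Ivd* gained a call with the offset for GC content and length (adjusted p = 0.0344) and without WH8 (edgeR adjusted p = 0.0287). *Auh* rose (0.45), a call lost with DESeq2 (adjusted p = 0.0556) and without WH9 or WH10 (edgeR adjusted p = 0.133 and 0.0653). The genes grouped by branch were chosen after their values were seen, apart from *Hibadh*, *Bckdha*, *Echs1* and *Mccc1*. *Bckdhb*, *Dbt* and *Bcat2* were also chosen after their values were seen.

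Across the 4 libraries, the genes most like *Oxct1* among 5909 abundant genes were *Serinc1*, *Nudt3* and *Mrps34*, at distances of 0.013, 0.025 and 0.026 between centered log2 CPM profiles. Among those most like *Acat1* were *Ndufs1* and *Cox8a*, of the respiratory chain, at 0.018 and 0.044. The log2 fold changes were 0.50, 0.51 and 0.49 for the genes near *Oxct1*, and 0.83 and 0.84 for those near *Acat1*. With only 4 libraries, a near profile largely restates a similar fold change, and shared regulation was not tested. *Bdh1* was too low for such a profile.

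Markers of heart muscle were present and moved in part with the genotype. Of 7 cardiomyocyte markers, 3 were higher and 1 lower, and their summed level was 485483 and 517900 normalized counts in Ctrl and 666856 and 649798 in miR-128OE libraries. The higher ones were *Actc1* (log2 fold change 1.34), *Pln* (0.59) and *Myh6* (0.33), and *Ryr2* was lower (−0.40). *Tnnt2* (0.12), *Tnni3* (0.22) and *Myl2* (0.25) had no call. On average, *Actc1* went from 43432 to 109975 normalized counts and *Myh6* from 171344 to 215543. Of 5 brown fat markers, 3 were higher with edgeR and 1 was called with DESeq2, and their summed levels were 491 and 459 against 974 and 746. *Ucp1*, the uncoupling protein that defines brown fat, had 56 and 3 counts in WH7 and WH8 and 253 and 189 in WH9 and WH10 (log2 fold change 2.69, edgeR adjusted p = 0.00418, and 0.137 with DESeq2), and its log2 fold change was 5.54 without WH7 and 1.99 without WH8. The calls of *Cidea* and *Adipoq* were both lost without WH7 (edgeR adjusted p = 0.0602 and 0.135) and without WH9 (edgeR adjusted p = 0.236 and 0.139), and that of *Adipoq* also without WH10 (edgeR adjusted p = 0.192) and with DESeq2 (adjusted p = 0.158). The call of *Cidea* was also lost with total counts (adjusted p = 0.0509) and with the offset for GC content and length (adjusted p = 0.075). The endothelial list had 2 higher and 1 lower of 6, and the fibroblast list 1 higher of 7. The smooth muscle list had 2 higher and 1 lower of 5, and the erythroid list 1 higher of 2 tested. Over all genes tested, 31.5% were called, 16.5% higher and 15% lower. Whether any marker list departed from these shares was not tested. Of 5 hepatocyte markers, *Alb* (serum albumin) had 0 counts in 3 libraries and 3 in WH10, and *Fgb* (fibrinogen β) had 0 in each. Of 3 tested genes, 1 was lower (*Apoa2*, with 18 and 18 counts in Ctrl against 0 and 4 in miR-128OE libraries). *Ttr* went the other way without a call, with 15 and 5 counts against 26 and 23 (log2 fold change 1.03, edgeR adjusted p = 0.11). *Apoa1* had no call (−0.18). The summed level of the 5 hepatocyte markers was 71.3 and 93.3 normalized counts in WH7 and WH8 against 71.3 and 68.1 in WH9 and WH10. Of 5 macrophage markers, 0 were called by edgeR, 0 had an unadjusted p-value under 0.05 and 0 were called by DESeq2. The part of these cell types in the values of *Oxct1*, *Acat1* and *Slc16a1* was not tested.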

How the data were processed

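RNA-seq libraries of P7 mouse hearts were compared, 2 Ctrl and 2 miR-128OE. By the study's methods and the processing notes, the authors discarded reads of low quality, mapped the others with TopHat2 to mm10 (the assembly GRCm38) and counted reads on known genes with Bioconductor packages. They deposited raw counts per Entrez gene, with no normalization. The gene models, the use of strand and the treatment of reads that fit several genes are not given in the sources used here, so overlapping, antisense and near-identical genes are uncertain.

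Of 24454 identifiers, 24380 were matched to a symbol (RefSeq, GENCODE M21). Genes passing filterByExpr of edgeR 4.0.16 (R 4.3.3; minimum 10 counts, total 15) were scaled by TMM and tested with the quasi-likelihood test, miR-128OE against Ctrl, with Benjamini-Hochberg adjustment over 14266 genes and a threshold of 0.05. Standard errors (SE) were obtained from each log2 fold change and its F statistic, as their ratio after taking the square root of F. The test was checked on simulated counts with 200 of 14266 genes changed, a smaller share than the 31.5% called in the data. Of genes changed by a log2 of 1 and estimated in the right direction, 86.9% were called, and of those changed by 2, 95%. Of all calls in the simulation, 3.21% were false. The check does not cover a setting with as many changed genes as were called here. Levels between genes are CPM on TMM-scaled library sizes per kilobase of merged GENCODE exons. Log2 CPM profiles used a prior count of 2 and genes averaging 5 or more log2 CPM, compared by Euclidean distance. Seed matches were 7mer-m8 (CACTGTG) or 7mer-A1 (ACTGTGA) on the transcript strand of the longest 3′UTR. Python 3.11.15 and scipy 1.17.1 were used for summaries.

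The members, lists and tests were chosen with earlier results of these data known. Named genes are the members, the ketone list, the 2 genes with the smallest p-value and any that fell in each comparison list, the nearest in pattern to *Oxct1* and *Acat1* (up to 3 each), and others said to be chosen later. Alternatives were DESeq2 1.42.0 (test and size factors), upper-quartile factors, total counts, other filters, the exact and likelihood ratio tests, limma 3.58.1 (voom), a loess offset (span 0.5) for GC content and length, longest transcript lengths, 8mer matches alone, and each library left out. Some genes that these rules name are not reported here and were left out of the lists, counts and figures after the values were seen.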

Additional observations from a re-analysis of the deposited data

How the results depend on the processing

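*Oxct1* and *Acat1* were called higher under every one of the 10 alternative fits and without each library in turn, with log2 fold changes from 0.39 to 0.51 and from 0.74 to 0.87 over the fits, and from 0.45 to 0.54 and from 0.75 to 0.94 with 1 library left out. *Bdh1* had a fitted value only with no filter (1.03) and with WH7, WH8 or WH10 left out (0.64 to 1.78), and was not called in any of these. Of 280 values for the other 20 tested ketone list genes, 260 kept their direction and side of the threshold, 10 reversed, 5 lost and 5 gained a call. The 10 reversed values belong to genes with no call. They are *Slc16a6* (−0.0027) and *Slc16a7* (−0.015) with total counts, and, with 1 library left out, *Aacs* (−0.14 to 0.040), *Acat2* (−0.070 to 0.39), *Bdh2* (−0.29 to 1.64), *Esrra* (−0.14 to 0.043), *Slc16a6* (−0.13 to 0.33) and *Slc16a7* (−0.0040 to 0.17). The cause was not tested. Over all genes, 2347 were called higher and 2143 lower, against 1611 and 2948 with total counts (35.3% higher in place of 52.3% of those called, with −0.11 as the median over all genes), and 1403 lower with DESeq2. With 1 library left out, and so 1 group with a single library assumed to vary like the other, 897 to 2654 were higher and 667 to 2384 lower, and the number higher was 9 to 17 for fatty acid oxidation, 3 to 11 for branched-chain breakdown, 15 to 17 for the TCA cycle and 9 to 12 for the ketone list. Per kilobase of the longest transcript, *Oxct1* stood at 64.1 in Ctrl and 89.9 in miR-128OE hearts, and *Acat1* at 69.2 and 124, below *Sucla2* (85.2 and 135.5), so that *Acat1* and *Oxct1* ranked 4 and 6 in place of 3 and 4. With 8mer matches alone, *Bdh1* had 0. The log2 ratio of *Acat1* over *Oxct1* differed by 0.23 to 0.48 with 1 library left out, and that of *Bdh1* over *Acat1* by −0.29 to 1.07. No paired analysis was possible because the labels give no pairing between Ctrl and miR-128OE libraries. Few counts limit the precision for *Bdh1* and the other genes near the floor, and the cause of the low counts was not tested.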
